A study of Saccharomyces cerevisiae with 8 samples.

Results

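The ratio of ribosome footprints to mRNA was examined gene by gene in budding yeast grown without polyamines, from 4 of the 8 libraries of the study. These were the 2 ribosome footprint libraries and the 2 total RNA libraries at 0 µM added spermidine, and they were chosen by their assay and spermidine labels, not by any measured value. The other 4 libraries, with the same assays at 10 µM spermidine, are used only to show where the ratios at 0 µM differ. All 8 came from a Saccharomyces cerevisiae strain of mating type a (MATa) that carries ura3-52 and leu2, and in which LEU2 replaced both SPE1 and SPE2. SPE1 encodes ornithine decarboxylase and SPE2 encodes S-adenosylmethionine decarboxylase, so the cells cannot make putrescine or spermidine and depend on the medium for them. Cultures in SD, a synthetic glucose medium, were kept at 30 °C, started at an optical density of 0.025 and harvested at 0.6 to 0.7. The study asked how mRNA translation is regulated at low and high polyamine levels, with the polyamine transporter gene HOL1 as its subject.

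In ribosome profiling, a nuclease (RNase I here) digests mRNA except where a ribosome covers it, and the covered pieces are sequenced. The ratio of a gene's footprints to its mRNA, often called translational efficiency, follows how densely ribosomes occupy the mRNA, through both how often they start and how slowly they move. Polyamines act on translation in several known ways. Spermidine supplies the hypusine residue of eIF5A, a factor that helps ribosomes through proline-rich and other slow stretches and through termination. Polyamines also promote the frameshift in OAZ1 mRNA that makes antizyme, a negative regulator of ornithine decarboxylase, and in several organisms they stall ribosomes on short upstream reading frames.

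At 0 µM the footprint libraries held 5038682 and 7089928 reads assigned to genes, and the RNA libraries held 2525135 and 2884632. Across genes, which are not independent of each other, the Pearson r between replicates was 0.991 for footprints and 0.984 for mRNA. Whether the replicates were separate cultures is not stated in the labels, and p-values therefore cover just the spread among these libraries, possibly a technical one. The genotype was checked over all 8 libraries. SPE1 had 4 to 15 reads per library and SPE2 had 3 to 62, whereas LEU2 stood at 912 to 2530 reads scaled to 1000000 per library (CPM). The a-factor receptor gene STE3, which is active in cells of the opposite mating type, had 9 to 24 reads, and STE2, the receptor gene of a cells, had 452 to 571 CPM. In bulk libraries like these, a gene used by fewer cells and a gene with less RNA per cell cannot be told apart.

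Ratios were centred on the typical gene and ran far further down than up. Of 5488 genes tested, 1738 (31.7%) had a higher and 1797 (32.7%) a lower footprint than mRNA level, by edgeR's quasi-likelihood test at a Benjamini-Hochberg adjusted p below 0.05. A gene meeting that threshold is called here, and 64.4% of genes were. With a ratio of at least 2-fold added, 304 genes (5.54%) were called higher in footprints and 1019 (18.6%) lower. The median log2 ratio was 0.02, the middle 50% of genes lay between -0.72 and 0.49, and the extremes were 4.12 and -8.16. A log2 ratio of 3 or more was called for 8 genes, against 214 genes at -3 or less. Both footprint libraries lay on the same side of both RNA libraries for 83.5% of genes, so that separation by itself is common. Since each library was scaled to its own adjusted total, a fall of all translation together cannot be seen.

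**Figure D1:**
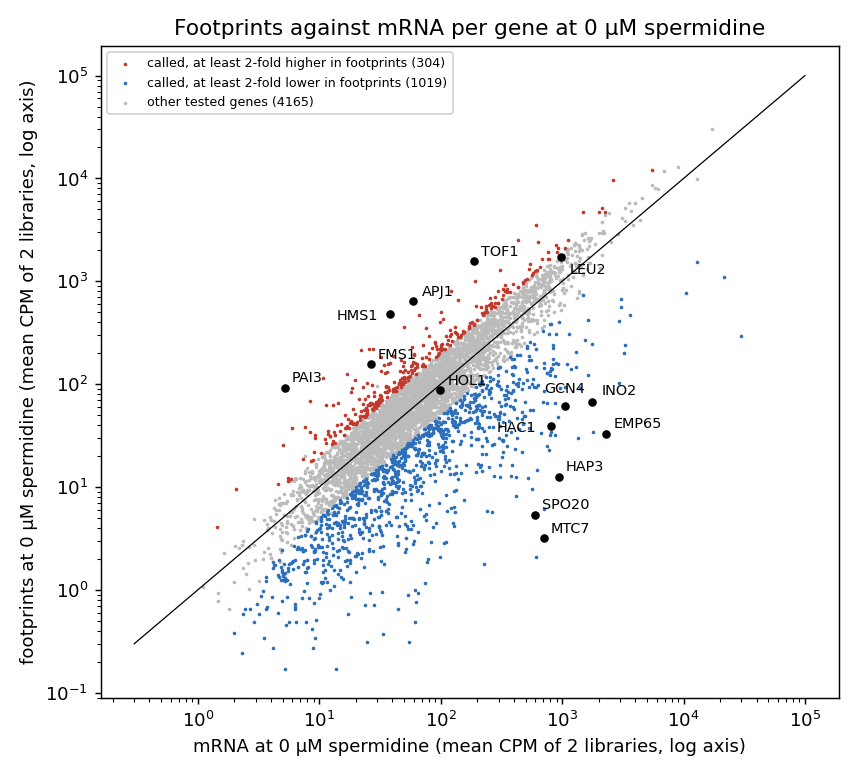
Mean footprint level (vertical axis) against mean mRNA level (horizontal axis) at 0 µM spermidine for each tested gene, both in CPM over 2 libraries on log axes; red and blue points mark genes called with at least a 2-fold ratio, and the line marks equal levels. The cloud has a longer tail below the line, with 1019 blue genes against 304 red ones, and HOL1 lies close to the line.

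HOL1, which encodes the transporter that brings polyamines into the cell with high affinity (YNR055C; chromosome XIV, 728426 to 730186, R64), stood near the typical gene at 0 µM. Its footprints were 95.1 and 80.0 CPM, against 97.4 and 101.1 CPM of mRNA. The footprint libraries lay below the RNA libraries, but the log2 ratio of -0.19 (SE 0.13) was not called (edgeR adjusted p = 0.24). HOL1 ranked at the 41.4th percentile of all ratios. At 10 µM the log2 ratio of HOL1 was -0.88, which was called lower (edgeR adjusted p = 0.00093). The difference of 0.70 between 0 and 10 µM was not called (edgeR adjusted p = 0.12). When only genes with a mean of at least 100 reads were scaled and tested, the HOL1 ratio of -0.34 at 0 µM was called lower (edgeR adjusted p = 0.049).

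Among the genes that make and break down polyamines, 3 of 9 tested were called higher in footprints and none lower, with a median log2 ratio of 0.33. That share is close to the 31.7% of all genes. FMS1, the polyamine oxidase that converts spermine to spermidine, stood out with 123 and 188 CPM in footprints, against 24.3 and 29.0 CPM in mRNA. That is a 5.83-fold ratio (log2 2.54, SE 0.39, edgeR adjusted p = 0.00031), and the libraries of the assays did not overlap. SPE3, the spermidine synthase, had 433 and 393 CPM in footprints, against 260 and 251 CPM in mRNA (log2 0.69, edgeR adjusted p = 0.00023). SPE4, the spermine synthase, was not called at log2 0.39 (edgeR adjusted p = 0.17). OAZ1, the antizyme gene, had 22 and 18.8 CPM in footprints, against 19.2 and 32.1 CPM in mRNA. The libraries of the assays overlapped for OAZ1, and its log2 ratio of -0.35 was not called (edgeR adjusted p = 0.18), although it was called at -0.68 without RNA replicate 1. Neither deleted gene was called at 0 µM. The log2 ratio was -0.95 for SPE1, on 11 to 15 reads per library, and -0.06 for SPE2, on 25 to 62. At 10 µM, on 4 to 14 reads per library, SPE1 was called lower (log2 -1.68, edgeR adjusted p = 0.027).

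Genes of polyamine transport tended to the low side. Of 14 tested, 7 (50%) were called lower in footprints and 4 (28.6%) higher, beside 32.7% and 31.7% of all genes. The median log2 ratio was -0.38, beside 0.02 for all genes. TPO5, which exports polyamines, had 48.2 and 43.6 CPM in footprints, against 77.8 and 86.1 CPM in mRNA (log2 -0.84, edgeR adjusted p = 0.00038). PTK1, a kinase gene tied to polyamine uptake, had a log2 ratio of -0.98. Its call was lost without footprint replicate 2, at -0.92, without RNA replicate 1, at -0.88, and with the trend over gene length removed, at -0.64. TPO2, another exporter, had 120 and 106 CPM in footprints, against 86.9 and 65.6 CPM in mRNA, a log2 ratio of 0.57 that was called. Without RNA replicate 2 the TPO2 ratio was 0.36 and was not called. The footprint libraries of TPO5 lay below its RNA libraries, and those of TPO2 above.

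For eIF5A and the enzymes that modify it, 3 of 4 genes were called higher in footprints, beside 31.7% of all genes. HYP2, the main eIF5A gene in air, had 3092 and 2763 CPM in footprints, against 2326 and 1926 CPM in mRNA (log2 0.46, edgeR adjusted p = 0.0091). The HYP2 call was lost without footprint replicate 1 (log2 0.38), without RNA replicate 2 (log2 0.31) and with only genes of a mean of at least 100 reads (log2 0.31). DYS1, the deoxyhypusine synthase that uses spermidine, had a log2 ratio of 0.72, and LIA1, the deoxyhypusine hydroxylase, had 0.98. ANB1, the eIF5A gene of low oxygen, was not called at log2 -0.11. Its levels were low, at 1.99 to 3.22 CPM in footprints and 1.17 to 4.10 CPM in mRNA. Of the 3 genes listed for programmed +1 frameshifting, 1 was called lower (33.3%, near the 32.7% of all genes): EST3, a telomerase subunit, at -0.71. ABP140, the third of them, was not called at log2 0.20. The EST3 call was lost with DESeq2 (adjusted p 0.077).

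The highest ratios belonged to genes of unrelated function. PAI3, a 207-bp gene for the inhibitor of the vacuolar protease Pep4, had 92.9 and 91.2 CPM in footprints, against 3.91 and 6.49 CPM in mRNA, a ratio of 17.3-fold (log2 4.12, SE 0.21). Only 10 and 19 RNA reads stood behind the mRNA level of PAI3. HMS1, a helix-loop-helix protein linked to pseudohyphal growth, had 456 and 498 CPM in footprints, against 28.9 and 48.2 CPM in mRNA (12.3-fold). APJ1, an Hsp40 co-chaperone, had 771 and 518 CPM in footprints, against 61.0 and 56.4 CPM in mRNA (11-fold). In each of these genes the lower footprint library was several times the higher RNA library. SHG1, a subunit of the COMPASS histone methyltransferase, followed at log2 3.40, and SIW14, an inositol pyrophosphate phosphatase, at 3.28.

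Further named genes with high ratios were FMP10 at log2 3.08, TOF1 at 3.06, AZR1 at 3.01, FAL1 at 2.99, PEF1 at 2.89, SWC3 at 2.87 and RRP43 at 2.82. TOF1, which stabilises replication forks at barriers, had 1728 and 1409 CPM in footprints, against 172 and 204 CPM in mRNA. AZR1 is a plasma membrane drug transporter, FAL1 an RNA helicase of small-subunit assembly, SWC3 a subunit of the SWR1 remodeller and RRP43 an exosome subunit. All 12 of these genes overlap no other annotated gene, and in all 12 the call held under each alternative run. Counts carry no position, so footprints spread along a gene, footprints at 1 spot and footprints on its leader cannot be told apart.

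**Figure D2:**
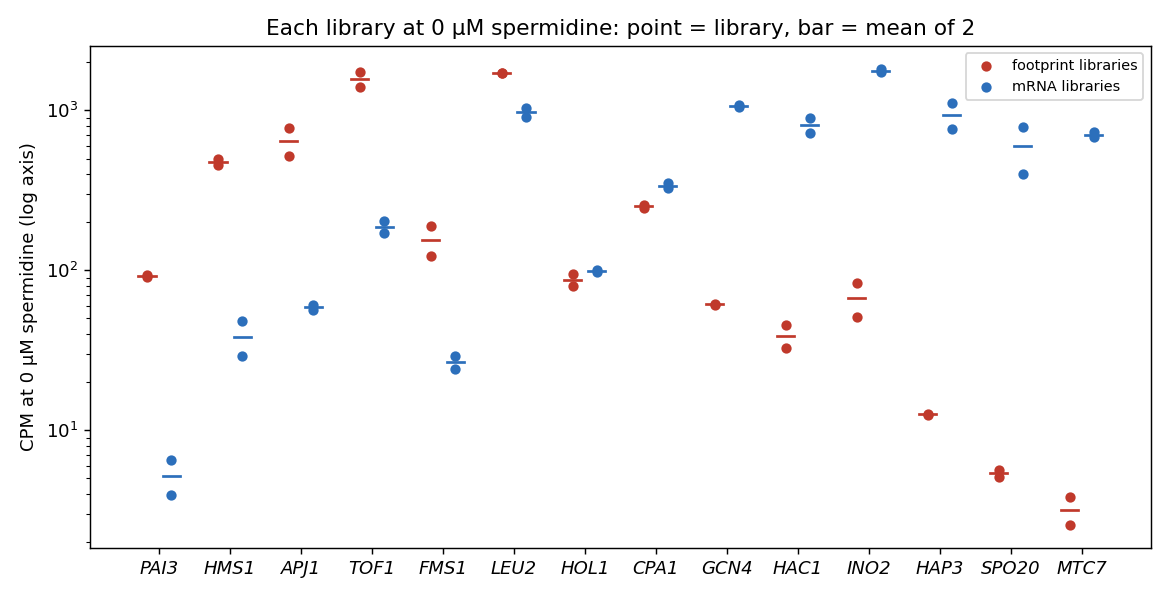
Level of 14 genes in each library at 0 µM spermidine, in CPM on a log axis, with the 2 footprint libraries in red on the left of each gene and the 2 RNA libraries in blue on its right; bars are means of 2. The assays are far apart for genes at the ends, such as PAI3 (92.9 and 91.2 against 3.91 and 6.49) and MTC7 (3.83 and 2.56 against 728 and 679), and nearly level for HOL1.

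At the low end, footprints were few beside the mRNA. Of the 37 genes called at a log2 ratio of -5 or less, 15 had no gene name and 4 overlap another annotated gene. Among all 5488 tested genes, 387 had no name and 125 overlap another. Fewer than 100 reads in each footprint library were found for 31 of the 37, which a cut at so low a ratio favours by itself. The lowest was YCR024C-B, 267 bp long and 79 bp from the gene PMP1 (chromosome III, 162599 to 162865, R64). It had 2.22 and 1.99 CPM in footprints, against 675 and 539 CPM in mRNA, a ratio 286-fold lower than even (log2 -8.16, SE 0.23). MTC7 had 3.83 and 2.56 CPM in footprints, against 728 and 679 CPM in mRNA (log2 -7.81), and it had 19 and 18 footprint reads. It lies 5 bp from an annotated tRNA gene and 29 bp from HYP2, whose mRNA stood at 2326 and 1926 CPM, and any part of the neighbours' reads in its count was not tested.

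Of the 12 lowest genes without an overlap, SPO20, HAP3 and EMP65 had the most footprint reads, 28 to 244 per library at 0 µM. SPO20, a membrane fusion protein of sporulation, had 5.64 and 5.12 CPM in footprints, against 402 and 788 CPM in mRNA (log2 -6.79, SE 0.34). HAP3, a subunit of the CCAAT-binding activator of respiratory genes, had 12.5 and 12.7 CPM in footprints, against 766 and 1109 CPM in mRNA (log2 -6.22). EMP65, a membrane protein of the endoplasmic reticulum, had 31.4 and 34.7 CPM in footprints, against 2049 and 2568 CPM in mRNA (log2 -6.12). Footprint and RNA libraries did not come near each other in any of these 3 genes, and the RNA libraries of SPO20 differed most between themselves. The rest of the 12 lowest without an overlap were YLR285C-A at -7.22, YER138W-A at -6.85, the flocculin gene FLO1 at -6.31, ECM23 at -6.09, AIM26 at -6.02, RRT5 at -5.98 and YFL012W at -5.96. Each of these had 1 to 8 reads per footprint library at 0 µM, so the sizes of their ratios rest on few reads. Their RNA reads alone were enough to pass the filter on low counts. YLR285C-A was at -7.85 without footprint replicate 2, and AIM26 at -6.67 without footprint replicate 1. As with the footprints, mRNA reads at 1 spot of a gene cannot be told apart from reads along it.

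Genes that overlap another annotated gene are less certain, since whether strand was used in counting is not given in the sources used here. Among them, YCR099C (log2 -7.00) shares 29 bp with EMA35 on the same strand, YNL042W-B (-6.88) and YOR072W-B (-5.53) overlap tRNA genes, and YJL047C-A (-5.54) overlaps the small nucleolar RNA gene SNR60. On the high side were CPP2 at 1.86, HVG1 at 1.67, WWM1 at 1.49 and RCO1, a subunit of a histone deacetylase complex, at 1.34, all with a partner on the opposite strand. The footprint libraries of HVG1 differed, at 41.7 and 18.9 CPM, and its ratio was 1.03 without footprint replicate 1 and 2.14 without footprint replicate 2. Genes with a same-strand overlap had a median log2 ratio of -1.71, and 25 of 38 (65.8%) were called lower, beside 32.7% of all genes. The median was -0.16 over 62 genes with an opposite-strand overlap, of which 33.9% were called lower. Over 5361 genes with no overlap it was 0.02, with 32.4% called lower.

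Genes with described regulatory upstream reading frames, short frames in the leader that hold ribosomes back from the coding region, split in both directions. Of 21 tested, 7 were called lower and 6 higher, close to the shares of all genes (32.7% lower and 31.7% higher), and the 4 called at least 2-fold lower were also near the 18.6% of all genes. GCN4, the activator of amino acid synthesis genes and the standard case of such control, had 61.0 and 61.5 CPM in footprints, against 1078 and 1054 CPM in mRNA. The assays were 17.4-fold apart (log2 -4.12, SE 0.11, edgeR adjusted p = 8.6e-09), with replicates that barely differed. INO2, an activator of phospholipid synthesis, had 51.2 and 83.4 CPM in footprints, against 1728 and 1821 CPM in mRNA (log2 -4.71). CPA1, a carbamoyl phosphate synthetase subunit whose leader peptide responds to arginine, had 256 and 247 CPM in footprints, against 351 and 326 CPM in mRNA (log2 -0.43).

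The CPA1 call did not hold without footprint replicate 1 (log2 -0.45), without footprint replicate 2 (-0.42), without RNA replicate 1 (-0.39) or with the trend over gene length removed (-0.28). At the other end of this list, CBS1, a translational activator of mitochondrial COB mRNA, had 51.0 and 30.0 CPM in footprints, against 15.3 and 13.0 CPM in mRNA (log2 1.51). TIF4631, the eIF4G gene, was at 0.92. HOL1, itself a member, lay in the middle of the list. The 4 members called at least 2-fold lower were INO2, GCN4, WSC3 at -1.34 and PPR1 at -1.15, of which WSC3 and PPR1 are named after their values were seen.

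Transcripts whose splicing is regulated or inefficient include HAC1, the activator of the unfolded protein response, whose unspliced mRNA is held untranslated in yeast until Ire1 cuts out its intron. HAC1 had 32.8 and 45.4 CPM in footprints, against 898 and 726 CPM in mRNA (log2 -4.36, SE 0.18, edgeR adjusted p = 9.2e-08). Footprints were thus scarce in both libraries beside a plentiful mRNA. Over the 14 genes of the list, 6 were called lower and 6 higher (42.9% each), beside 32.7% and 31.7% of all genes. RPL22B, whose splicing is inhibited by its own protein, had 11.1 and 12 CPM in footprints, against 36.8 and 44.1 CPM in mRNA (log2 -1.81). The meiotic gene SPO22 was at -1.99, whereas PCH2, another meiotic gene, was at 1.31. Counts do not separate spliced from unspliced mRNA.

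By their list medians, genes of the translation machinery lay above the typical gene, the ribosomal proteins by the least. Each of these lists had members on both sides of it. Of 26 initiation factor genes, 22 were called higher and 1 lower (median log2 ratio 0.60), beside 31.7% and 32.7% of all genes. GCD7, a subunit of the guanine nucleotide exchange factor eIF2B, led with 466 and 334 CPM in footprints, against 108 and 89.8 CPM in mRNA (log2 2.01), and TIF34, an eIF3 subunit, was at 1.09. SUI1, encoding eIF1, was the 1 called lower, with 128 and 119 CPM in footprints, against 211 and 169 CPM in mRNA (log2 -0.62). Elongation and termination factors had 11 of 14 called higher and none lower (median 0.51). TEF2, which encodes eEF1A, was at 1.1, but its reads cannot be separated with certainty from those of its identical partner TEF1.

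Aminoacyl-tRNA synthetases had 15 of 19 called higher (78.9%, beside 31.7% of all genes), among them DPS1 for aspartate at 1.29 and KRS1 for lysine at 1.05. FRS2, a subunit of the phenylalanine enzyme, was the exception, with 687 and 672 CPM in footprints, against 2926 and 3153 CPM in mRNA (log2 -2.16, SE 0.10). Ribosome assembly factors had 33 of 60 called higher and 7 lower (median 0.43), beside 31.7% and 32.7% of all genes. Their share of reads went the other way, at 1.08% and 1.16% of footprints, against 1.44% and 1.49% of mRNA reads. The helicase DRS1 was at 1.29 and the pseudouridine synthase CBF5 at 1.24. At the bottom of that list, NOP58, a core protein of box C/D small nucleolar RNPs, was at -2.45 and RRP12, a subunit export factor, at -2.85. RRP12 had 414 and 407 CPM in footprints, against 2977 and 2942 CPM in mRNA. FRS2, NOP58 and RRP12 each had replicates that differed far less than the assays did.

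Large-subunit ribosomal proteins had 39 of 81 genes (48.1%) called higher and 20 (24.7%) lower (median 0.26). Small-subunit proteins had 24 of 57 (42.1%) higher and 11 (19.3%) lower (median 0.22). The shares of all genes were 31.7% higher and 32.7% lower. Few of these ratios were large: 3 genes were at least 2-fold higher and 4 at least 2-fold lower, beside 5.54% and 18.6% of all genes. RPS7B had 611 and 633 CPM in footprints, against 271 and 249 CPM in mRNA (log2 1.26), whereas its partner RPS7A was not called at -0.15. RPS28A was at -1.09, RPL40A, a ubiquitin fusion, at -1.02, and RPL7A at 1.04. Of 57 pairs of gene copies, 47 lay within 0.5 of each other on the log2 scale and 3 were more than 1 apart, namely RPL22, RPS7 and RPS28. RPL7A and RPL7B hold small nucleolar RNA genes, and near-identical copies can exchange reads, so single ribosomal protein genes are uncertain.

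**Figure D3:**
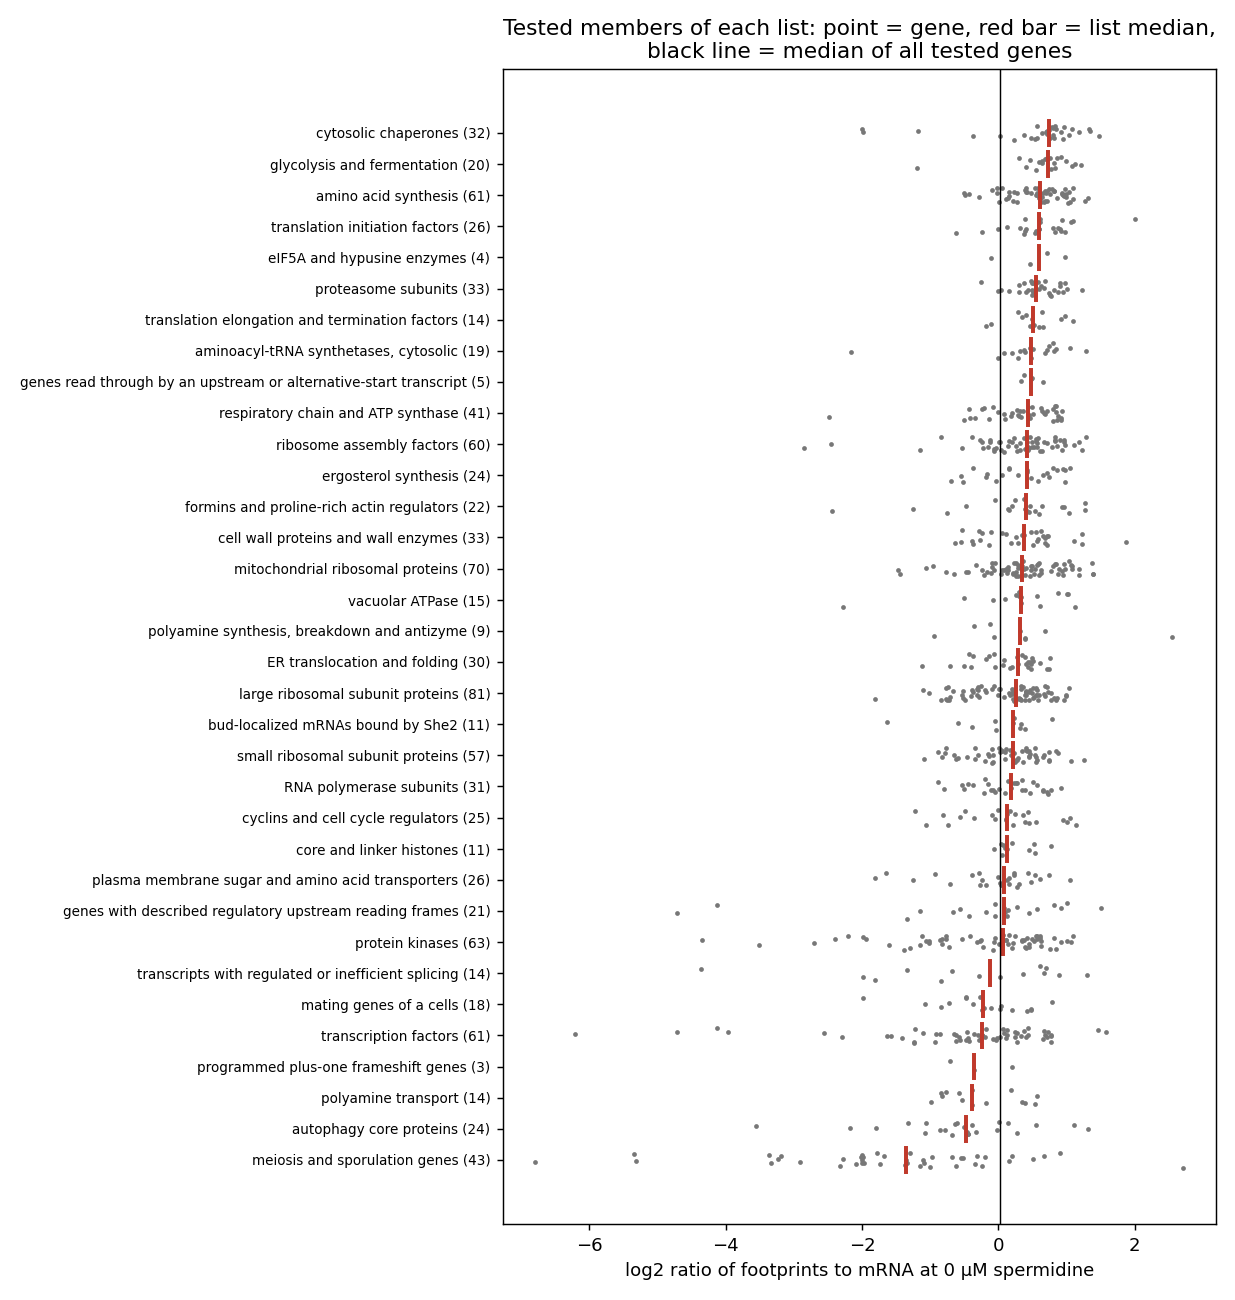
Log2 ratio of footprints to mRNA at 0 µM spermidine for the tested members of 34 gene lists (number tested in brackets), sorted by list median; points are genes with random vertical jitter, red bars are list medians and the black line is the median of all tested genes. Chaperones (0.75) and glycolysis (0.74) are at the top, meiosis and sporulation (-1.36) at the bottom, and most lists hold members on both sides of the line.

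Genes of central metabolism had more footprints than their mRNA share. In glycolysis and fermentation 19 of 20 genes were called higher and 1 lower (median log2 ratio 0.74), beside 31.7% and 32.7% of all genes. The 20 genes took 9.55% and 9.41% of footprints, against 6.15% and 5.27% of mRNA reads. CDC19, the main pyruvate kinase, had 12199 and 11782 CPM in footprints, against 5981 and 5006 CPM in mRNA (log2 1.13). TDH1, a glyceraldehyde-3-phosphate dehydrogenase whose copies are near-identical, was at 1.22. The 1 called lower was PDC5, the minor pyruvate decarboxylase, with 24.0 and 19.6 CPM in footprints, against 48.1 and 50.6 CPM in mRNA (log2 -1.19).

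Amino acid synthesis genes had 44 of 61 called higher and 4 lower (median 0.62). For this list and the next ones, the shares of all genes were 31.7% higher and 32.7% lower. ARG1, argininosuccinate synthetase, was at 1.31, and ILV5, of branched-chain synthesis, at 1.27. The list took 5.24% and 5.56% of footprints, against 3.59% and 3.50% of mRNA reads. Ergosterol synthesis had 14 of 24 called higher and 4 lower, with ERG20 at 1.05. Cell wall genes had 19 of 33 higher and 4 lower (median 0.38). SED1, an abundant wall glycoprotein, had 9409 and 9732 CPM in footprints, against 2802 and 2444 CPM in mRNA (log2 1.87).

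Protein folding and breakdown genes were mostly on the high side, whereas 31.7% of all genes were called higher and 32.7% lower. Of 33 proteasome subunits, 29 were called higher and none lower (median 0.56), led by PUP1 at 1.24 and SCL1 at 1.01, both of the core particle. Cytosolic chaperones had 26 of 32 higher and 3 lower (median 0.75). The small heat shock protein HSP42 had 362 and 362 CPM in footprints, against 135 and 126 CPM in mRNA (log2 1.47), and HSP26 was at 1.34. Of the stress-induced Hsp70 genes, SSA4 was at -1.98 and SSA3 at -2.0. SSA4 had 92.7 and 81.6 CPM in footprints, against 307 and 381 CPM in mRNA, so both of its footprint libraries lay below both RNA libraries.

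Mitochondrial genes leaned high, whereas 31.7% of all genes were called higher and 32.7% lower. Mitochondrial ribosomal proteins had 36 of 70 called higher and 8 lower (median 0.35), from RSM24 at 1.40 to MRPL10 at -1.46. Respiratory chain and ATP synthase genes had 25 of 41 higher and 4 lower (median 0.43), with CYT1, cytochrome c1, at 0.94. NDE2, an external NADH dehydrogenase, was far below the others at -2.48. The vacuolar ATPase had 9 of 15 higher, and 2 lower, among them VMA7 at -2.28, with 168 and 180 CPM in footprints, against 721 and 972 CPM in mRNA.

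Of 61 transcription factors, 24 (39.3%) were called lower and 13 (21.3%) higher, beside 32.7% and 31.7% of all genes. The median log2 ratio was -0.23, and 13 members were at least 2-fold lower, not far from the 18.6% of all genes. The list took 0.428% and 0.434% of footprints, against 0.912% and 0.983% of mRNA reads. HAP3, INO2 and GCN4, given above, stood at the low end. CBF1, a centromere and methionine gene factor, was at 1.58, and MCM1, a factor of mating and cell cycle genes, at 1.46. The median of this list was 0.18 once the trend over gene length was removed, so its sign depends on that choice.

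Protein kinases had 23 of 63 genes (36.5%) called lower and 23 higher, near the shares of all genes. At least 2-fold lower were 15 kinases and at least 2-fold higher 3, beside 18.6% and 5.54% of all genes. BUB1, of the spindle checkpoint, had 39.3 and 27.3 CPM in footprints, against 683 and 664 CPM in mRNA (log2 -4.35). FUS3, the mating pathway MAP kinase, had 62.3 and 68.3 CPM in footprints, against 370 and 1119 CPM in mRNA (log2 -3.51, SE 0.42). Its RNA libraries differed by more than 2-fold, and its ratio was -4.12 without RNA replicate 1 and -2.52 without RNA replicate 2. At the high end were the casein kinase YCK2 at 1.1 and TPK2, a protein kinase A subunit, at 1.06. Formins and proline-rich actin regulators, a group relevant to eIF5A, had 13 of 22 called higher and 4 lower. For all genes the shares were 31.7% and 32.7%. In this list the actin patch protein ABP1 was at 1.28, the formin BNI1 at -1.24 and its partner BUD6 at -2.43.

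Meiosis and sporulation genes, which growing haploid cells keep off, had the lowest median of any list, -1.36 over 43 tested of 44. Of these, 30 were called lower, 26 of them at least 2-fold, and 3 higher. Among all genes 32.7% were called lower, 18.6% at least 2-fold, and 31.7% higher. DIT2, an enzyme of the spore wall, had 2.42 and 1.57 CPM in footprints, against 47.3 and 111 CPM in mRNA (log2 -5.34, or -4.61 without RNA replicate 2). SPR1, a glucanase of sporulation, went the other way with 802 and 796 CPM in footprints, against 102 and 141 CPM in mRNA (log2 2.71). Many of these genes have few reads, and with only genes of a mean of at least 100 reads kept the list median was -0.71. A gene passed the filter on low counts if either assay was high enough, so low genes with reads in RNA alone enter and had to differ.

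Autophagy genes had 14 of 24 called lower and 3 higher (median -0.48), beside 32.7% and 31.7% of all genes. ATG8, the ubiquitin-like protein of the autophagosome, had 81.4 and 75.6 CPM in footprints, against 29.0 and 33.8 CPM in mRNA (log2 1.32), and ATG3, the enzyme that conjugates it, was at 1.12. ATG14, of the lipid kinase complex, was at -2.17. Mating genes of a cells had 6 of 18 (33.3%) lower, like the 32.7% of all genes, and 3 higher. GPA1, the pheromone G protein subunit, was at 0.79 and the agglutinin anchor AGA1 at -1.08. For the lists that follow, the share of all genes is again 31.7% higher and 32.7% lower. Core and linker histones had 4 of 11 higher and none lower. RNA polymerase subunits (11 of 31 higher, 5 lower), cyclins and cell cycle regulators (8 of 25 higher, 6 lower), sugar and amino acid transporters (8 of 26 higher, 5 lower), She2-bound bud mRNAs (4 of 11 higher, 3 lower) and genes of endoplasmic reticulum translocation (15 of 30 higher, 4 lower) completed the larger groups. Apart from endoplasmic reticulum translocation, the shares called higher in these lists (30.8% to 36.4%) were near that of all genes. Their shares called lower were below the 32.7% of all genes. They were 0% for histones, 16.1% for RNA polymerase subunits, 19.2% for transporters, 24% for cyclins and 27.3% for She2-bound mRNAs. SIC1, the inhibitor of B-type cyclin kinase, was at 1.14 and MBP1, of the G1 transcription complex, at -1.22.

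Ratios varied with gene length, which is the annotated span in the R64 gene table with any introns included. Genes of 600 bp to below 1200 bp had the highest median log2 ratio, 0.25 over 1786 genes. Of these, 730 (40.9%) were called higher, beside 31.7% of all genes. Both ends were lower. The median was -0.32 over 163 genes under 300 bp, and -0.69 over 93 genes of 4800 bp or more. Of those 93 genes, 63 (67.7%) were called lower and 5 (5.38%) higher, beside 32.7% and 31.7% of all genes. With the length trend removed, the calls became 2451 higher and 1323 lower, so that 64.9% of calls were higher, beside 1738 and 1797 without that step. By mRNA level, taken from the 10 µM libraries as CPM per kb to keep it apart from the ratio, the lowest 10% of genes had a median log2 ratio of -0.65 and the highest 10% had 0.24. Genes with no name in the table had a median of -0.59 over 387.

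**Figure D4:**
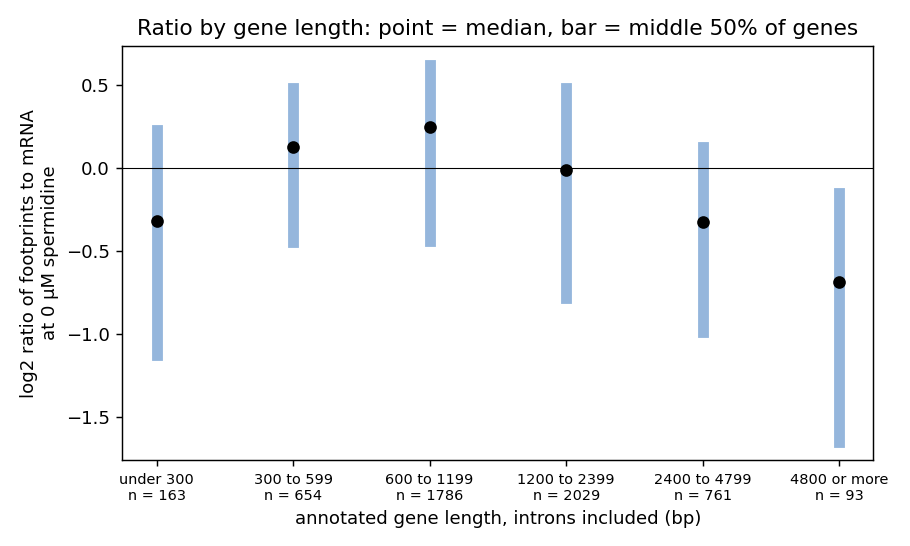
Log2 ratio of footprints to mRNA at 0 µM spermidine (vertical axis) by annotated gene length in bp, introns included (horizontal axis); points are medians over the genes of a length class, bars span the middle 50% of its genes, and n is the number of genes. The median is highest from 600 to below 1200 bp (0.25) and lowest at 4800 bp or more (-0.69).

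Most of the pattern at 0 µM was also present at 10 µM, in libraries that share none with it. Across the 5488 genes the log2 ratios at 0 and 10 µM had a Pearson r of 0.921 and a Spearman rho of 0.896, as a description over genes that share the strain and the assays. Of the 304 genes called at least 2-fold higher at 0 µM, 272 were called higher at 10 µM, 207 of them at least 2-fold, and 6 lower. At 10 µM, 34.2% of all genes were called higher, 9.26% at least 2-fold. Of the 1019 called at least 2-fold lower, 957 were called lower at 10 µM and none higher, where 31.4% of all genes were called lower. The difference between the ratios at 0 and 10 µM was called for 98 genes (1.79%), 49 (0.893%) in each direction. At an unadjusted p below 0.05 there were 1014 genes (18.5%). Without RNA replicate 2 at 10 µM, the 98 came down to 20 of these genes, so the number is fragile.

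The genes whose ratio was higher at 0 µM than at 10 µM by the most were AZR1, LAM4, RRG9, SEO1, YMR158C-A and KIP1. AZR1 had 74.7 and 61.8 CPM in footprints at 0 µM, against 2.19 and 2.45 CPM at 10 µM, while its mRNA stood at 8.61 and 8.20 CPM at 0 µM and 8.88 and 7.18 CPM at 10 µM. Its log2 ratio was 3.01 at 0 µM and -1.77 at 10 µM, a difference of 4.78 (SE 0.39, edgeR adjusted p = 0.0006). In AZR1 the footprints differed between the concentrations and the mRNA libraries overlapped. Its reads were few, with 7 and 10 in footprints at 10 µM and 14 to 24 per RNA library. LAM4, a sterol transfer protein at membrane contacts, had a mean of 202 CPM in footprints and 96.8 CPM in mRNA at 0 µM, against footprints of 15.3 and 14.2 CPM and mRNA of 78.9 and 83.1 CPM at 10 µM (difference 3.52, edgeR adjusted p = 2e-05). KIP1, a spindle kinesin, differed by 2.19 (edgeR adjusted p = 0.0021).

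The genes lower at 0 than at 10 µM by the most were RRT5, PBI1, HAC1, GCN4, SRO77 and YNR071C. GCN4 had a log2 ratio of -4.12 at 0 µM and -1.94 at 10 µM, a difference of -2.18 (SE 0.14, edgeR adjusted p = 7.5e-05). Its footprints were 61.0 and 61.5 CPM at 0 µM, against 126 and 137 CPM at 10 µM, while its mRNA was 1078 and 1054 CPM at 0 µM and 510 and 497 CPM at 10 µM. HAC1 had a log2 ratio of -4.36 at 0 µM and -1.54 at 10 µM, with footprints at 32.8 and 45.4 CPM, against 170 and 151 CPM at 10 µM (difference -2.82, edgeR adjusted p = 0.0006). For both genes footprints were lower and mRNA higher at 0 µM, with no overlap of libraries. PBI1 differed by -3.09 and lost its call without RNA replicate 2 at 10 µM (-2.91), and RRT5, with 3 and 5 footprint reads at 0 µM, differed by -3.61 and lost its call in 6 of 18 alternatives (-4.08 to -2.75 over all of them).

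Fewer ribosomal protein genes were called higher in footprints at 0 than at 10 µM. Of 81 large-subunit genes, 39 were called higher at 0 µM and 59 at 10 µM, beside 31.7% and 34.2% of all genes. Their median log2 ratio was 0.26 at 0 µM and 0.60 at 10 µM. The difference was called lower at 0 µM for 5 of the 81 and for 4 of 57 small-subunit genes. It was higher for none, beside 0.893% of all genes in each direction. The lower ratio was not particular to ribosomal proteins. The median difference was -0.34 and -0.31 for the 2 subunits, -0.39 for glycolysis, -0.31 for ergosterol synthesis and -0.05 for all genes. Other lists went the other way, such as meiosis and sporulation at 0.32 and transcription factors at 0.09. RPL22B had footprints of 11.1 and 12 CPM at 0 µM, against 94.3 and 103 CPM at 10 µM, and mRNA of 36.8 and 44.1 CPM at 0 µM, against 94.5 and 91.8 CPM at 10 µM (difference -1.89, edgeR adjusted p = 0.0017). RPS25B differed by -0.87 (edgeR adjusted p = 0.044), a call lost in 8 alternatives, 7 of them omissions of 1 library. Meiosis and sporulation, autophagy, mating and kinase genes had no called difference in either direction, nor had other lists such as initiation factors and cytosolic chaperones. The difference was called for 1.79% of all genes, so no call in lists of these sizes is near that share.

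**Figure D5:**
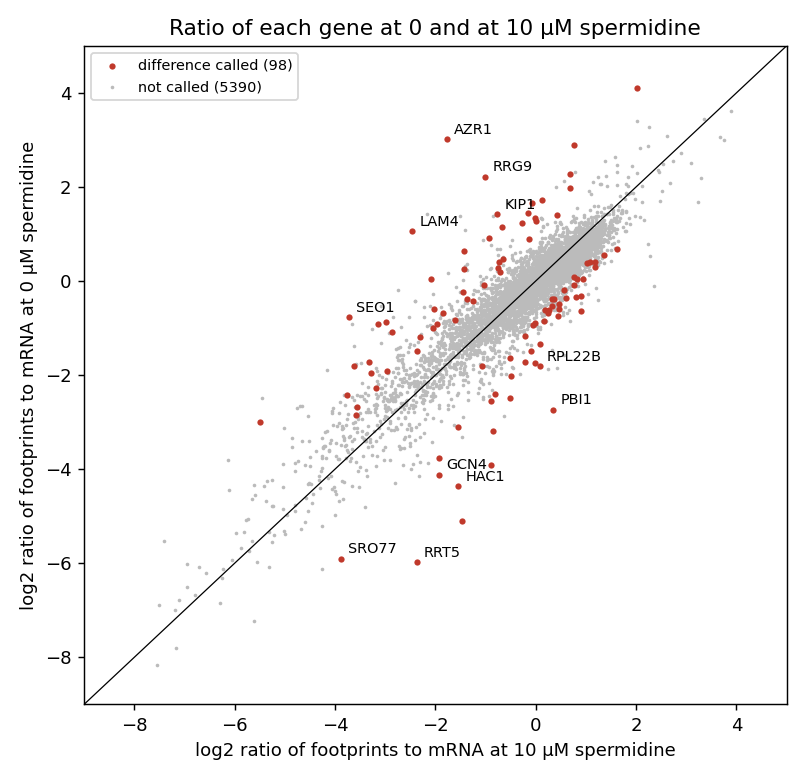
Log2 ratio of footprints to mRNA at 0 µM spermidine (vertical axis) against the same at 10 µM (horizontal axis) for 5488 tested genes; red points are the 98 genes whose difference was called, grey points are all others, and the line marks equal ratios. Most genes follow the line (Pearson r 0.921), with AZR1 and LAM4 far above it and GCN4, HAC1 and RRT5 far below.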

How the data were processed

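Footprint and RNA libraries were made from 1 yeast strain at 0 and 10 µM added spermidine, 2 libraries per group, grouped by title. Per the labels' protocols, footprints of 17 to 34 nucleotides were size-selected after RNase I digestion, and for RNA libraries 10 µg of total RNA per library was fragmented (70 °C, 15 min). In the deposited table are the authors' whole-number read counts per gene. Builds R64 and sacCer3 are named in the submitters' processing notes, as are edgeR, cutadapt and Bowtie (1.1.2 and 1.2.2), without their roles. Not given in the sources used here are the counted region, the use of strand and the treatment of reads that match several genes. The table lists 5545 genes, with no count of 0 (smallest 1), plus 3 lines with no gene and no counts. A RefSeq gene table (assembly R64) gave symbols and coordinates for 5543 IDs.

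Counts were fitted in R 4.3.3 with edgeR 4.0.16: filterByExpr (minimum count 10, minimum total 15; 5488 genes kept), trimmed-mean scaling over all 8 libraries, and 1 quasi-likelihood model with a mean per group and no block (4 residual degrees of freedom). The contrasts were footprints minus mRNA at 0 µM, the same at 10 µM, and their difference. Adjusted p-values are Benjamini-Hochberg values over all genes tested, and CPM were computed here from library totals multiplied by their trimmed-mean factors. The median SE of a log2 ratio was 0.15, or 0.25 below a mean of 100 reads and 0.11 at 1000 or more. The scripts were tested on simulated data. Alternatives used DESeq2 1.42.0, limma 3.58.1 (voom), other scalings and filters, replicate blocks, a length correction and omission of each library.

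The 34 gene lists, their members and the tests were chosen with earlier results of these data known. Named genes are the 12 highest and 12 lowest called ratios without overlap and the 4 and 4 with overlap, at a mean of 50 reads or more, a set of polyamine and control genes, the 2 highest and 2 lowest members of each list, and the 6 largest differences each way between 0 and 10 µM; other list members were named after their values were seen. Of 996 list symbols, 993 matched the table. Classes by runs of prolines, introns and upstream start codons need sequences and were not analysed here. YPR108W-A, an ID without reference coordinates, took 0.0273% and 0.0304% of footprints, against 2.62% and 3.44% of mRNA reads, and was kept in the totals.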

Additional observations from a re-analysis of the deposited data

Results flagged for a closer look

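For 19 of 177 named genes the log2 ratio of footprints to mRNA differed between 0 and 10 µM spermidine by the test of that difference (edgeR, adjusted p below 0.05). Of these 19, the 6 largest called differences in each direction were named for that difference, so their number is no result. The ratio was higher at 0 µM for AZR1 (difference 4.78), LAM4 (3.52), RRG9 (3.22), SEO1 (2.96), YMR158C-A (2.50), KIP1 (2.19), PEF1 (2.13), PAI3 (2.09), BAP3 (1.8), RCO1 (1.35) and RRP12 (0.73). It was lower at 0 µM for RRT5 (-3.61), PBI1 (-3.09), HAC1 (-2.82), GCN4 (-2.18), SRO77 (-2.02), YNR071C (-1.97), RPL22B (-1.89) and RPS25B (-0.87). LAM4, RRG9, SEO1, KIP1, AZR1, RCO1, GCN4, HAC1, SRO77, YNR071C and RPL22B were called under each alternative that tested the difference. PAI3, BAP3, RPS25B, RRP12 and RRT5 lost the call in 9, 10, 8, 7 and 6 alternatives in that order, and PEF1 (1.95), PBI1 (-2.91) and YMR158C-A (2.50) lost it only without RNA replicate 2 at 10 µM. YMR158C-A was at 3.37 without footprint replicate 2 at 10 µM.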

How the results depend on the processing

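The counts of calls at 0 µM stayed within 1.5 times under most alternatives, and no 2-fold call turned into a call of the other sign. Genes at least 2-fold higher numbered 165, and 2-fold lower 637, with only genes of a mean of 100 reads or more (4066 tested); 604 were 2-fold higher with the length trend removed, and 101 when tested against a 2-fold ratio itself. The median log2 ratio of all genes tested was 0.28 with the length trend removed and 0.0067 with the 100-read filter, beside 0.02; the median shift of a gene's own ratio was 0.20 and -0.16 in these settings. Genes with a higher difference between 0 and 10 µM numbered 83 with library totals alone (no trimmed-mean factor) and 83 with DESeq2. Omitting each library in turn gave 1360 to 1725 genes higher at 0 µM, 1539 to 1781 lower, 262 to 339 and 939 to 1114 at 2-fold, and 12 to 66 higher and 8 to 85 lower differences. RNA replicate 2 at 10 µM gave 12 and 8, and RNA replicate 2 at 0 µM gave 66 and 85.

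The deviations of same-numbered libraries had an r of 0.0863 between footprints and mRNA at 0 µM, 0.131 at 10 µM, 0.232 between the footprint groups and 0.168 between the mRNA groups, and the labels state no pairing. With a replicate block shared by the groups there were 1812 higher and 1856 lower ratios, and 83 higher and 98 lower differences; a block within concentration gave 81 and 84 differences. NEW1 was called higher (0.47) and MFA2 was at 0.029 with the length trend removed, opposite to their values otherwise, and RPT1 ran from -0.81 to 0.59 over the omissions, called higher without RNA replicate 2 at 0 µM; the cause was not tested. Of 160 named genes with a call, 135 kept it in every setting; of 34 list medians, 25 kept their sign. Leaving out overlapping genes, or YPR108W-A, was chosen after seeing the data and moved no count by over 1.5 times. Proline runs, introns and leaders were not analysed here.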
